A study of Mus musculus with 10 samples.

Results

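The mouse genes of the cerebral cortex were cut by the deposited annotation into 458337 counting bins, of which 904 were isolated pieces of microexon size. These bins were 3 to 27 bases long, had no bin of the same gene directly beside them, and had a mean count of at least 5 over the 10 libraries. They lay in 733 of 51612 genes, and 113 genes held at least 2 of them. The mean count, taken over both genotypes, chose the members, so the counts themselves are given only as a description. Total RNA was sequenced from the cortex of mice aged 18 days in 5 Usp7 cKO and 5 Usp7 WT animals. The cKO animals came from a cross of Usp7 fl/fl with NEX-cre mice, in which Cre acts in glutamatergic neurons, so the other cells of the tissue are not targeted. The product of Usp7 is a deubiquitinase, which takes ubiquitin off other proteins. Both groups were Trp53+/-. Whether the WT animals carried Cre or the floxed allele is not given in the sources used here. The comparison asks whether the share of a gene's counts that fell in such a bin differed between the genotypes.

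Microexons are very short exons, most of them spliced in neurons. They often keep the reading frame and add a few amino acids at protein surfaces or between domains, and many lie in genes of synapses, adhesion, the cytoskeleton and vesicle traffic. SRRM4 promotes their inclusion with helpers such as RNPS1 and SRSF11, PTBP1 represses many neuronal exons, and RBFOX, NOVA and other neuronal RNA-binding proteins act on further sets.

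The exons below are shown because the share of the gene or the inclusion in spliced reads differed between the genotypes, except Shank2 E025, in which neither did and which is shown as the exon next to Shank2 E026. Each is shown as it stands in a GENCODE M21 transcript on GRCm38, with 20 bases of the neighbouring exons on each side in lower case and the bin in capitals.
Clasp2 E036, 27 bases, chr9:113862436-113862462, plus strand: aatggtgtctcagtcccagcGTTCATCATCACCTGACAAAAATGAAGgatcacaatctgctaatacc
Clasp2 E037, 27 bases, chr9:113865086-113865112, plus strand: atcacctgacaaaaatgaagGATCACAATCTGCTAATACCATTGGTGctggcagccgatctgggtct
Clasp1 E049, 27 bases, chr1:118523321-118523347, plus strand: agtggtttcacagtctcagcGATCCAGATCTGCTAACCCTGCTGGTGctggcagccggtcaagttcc
Nbea E047, 9 bases, chr3:55994048-55994056, minus strand: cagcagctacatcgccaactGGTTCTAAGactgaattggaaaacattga
Shank2 E025, 9 bases, chr7:144396638-144396646, plus strand: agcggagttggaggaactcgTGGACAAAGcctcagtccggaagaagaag
Shank2 E026, 21 bases, chr7:144398241-144398261, plus strand: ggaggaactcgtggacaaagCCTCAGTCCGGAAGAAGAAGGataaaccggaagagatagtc
Shank1 E025, 24 bases, chr7:44344298-44344321, plus strand: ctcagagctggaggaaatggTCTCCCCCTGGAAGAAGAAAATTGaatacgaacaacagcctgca
Bmal1 E012, 21 bases, chr7:113281402-113281422, plus strand: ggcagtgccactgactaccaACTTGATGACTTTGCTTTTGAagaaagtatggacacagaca
Col4a1 E006, 17 bases, chr8:11204536-11204552, minus strand: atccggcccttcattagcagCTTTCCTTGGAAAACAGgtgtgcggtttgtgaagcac
Anapc4 E007, 27 bases, chr5:52841905-52841931, plus strand: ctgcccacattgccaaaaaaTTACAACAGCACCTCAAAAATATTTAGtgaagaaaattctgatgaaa
Yjefn3 E004, 13 bases, chr8:69888400-69888412, minus strand: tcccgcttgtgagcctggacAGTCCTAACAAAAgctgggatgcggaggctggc
Clasp2 E036 and Clasp2 E037 follow each other in the transcript, and so do Shank2 E025 and Shank2 E026, as the lower-case flanks show. Over their 27 bases, Clasp2 E037 and Clasp1 E049 were identical at 19 positions, and Clasp2 E036 and Clasp2 E037 at 15. All exons shown were internal and coding in the annotation.

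The members had a median length of 21 bases, and 152 of them were exactly 27 bases long. A further 105 had 24 bases, 122 had 3 to 9 bases and 18 had 3. A multiple of 3 was the length of 597 members (66.0%), against 45.9% of the isolated bins of 28 to 51 bases and 40.0% of those of 52 to 150 bases. An annotated GENCODE exon matched 789 members exactly. Of the 115 others, 113 lay inside a longer annotated exon, so these are pieces of exons that stand alone in the bin table and are not known to be microexons. Among the 670 members that were internal coding exons, 500 (74.6%) had a length divisible by 3 and 398 (59.4%) were skipped in another annotated transcript of the gene. A first exon was matched by 68 members and a last exon by 19. No member overlapped a bin of another gene, on either strand. Overlapping genes appear to have been resolved when the bins were made, so this does not show that the genes themselves do not overlap. Whether that step made the 113 pieces was not tested.

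**Figure D1:**
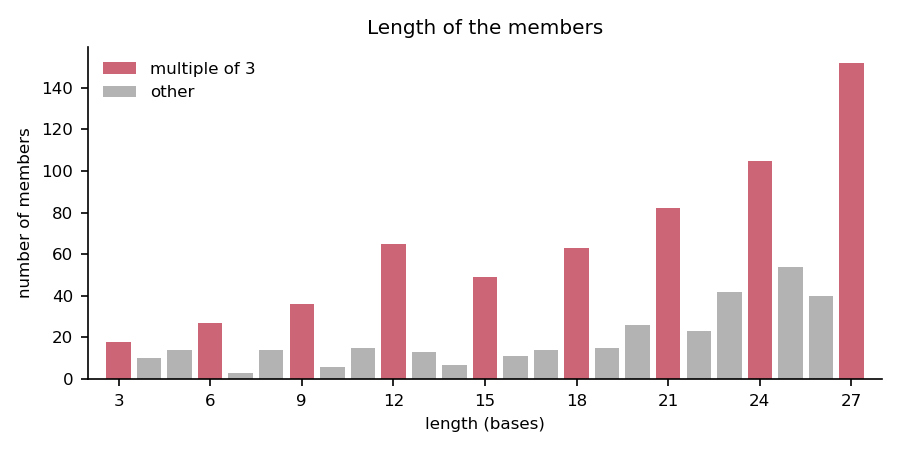
Number of members (vertical axis) at each length in bases (horizontal axis), with lengths divisible by 3 in red and the others in grey. The bars at multiples of 3 hold 597 of the 904 members and the tallest bar, at 27 bases, holds 152.

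The mean count of a member ranged from 5.0 to 4146.3 with a median of 36.4, and the median share of its gene was 1.53%. The most counted was an 18-base bin of Nrgn, which encodes neurogranin, a postsynaptic calmodulin-binding protein. At the lower threshold stood bins of Mgat4c, Col24a1 and Il17rc with a mean of 5.0, and just outside it bins of Septin4, Rasgrf2 and Usf1 with 4.9. At the upper length, the most counted bin of 27 bases was Kif1a E051 with 1430.6 counts, and the most counted isolated bin of 28 bases, just outside, was Dlg4 E048 with 1803.9.

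Each library held 42628526 to 51797145 bin counts, of which 90707 to 116569 fell in members, and the spliced reads used summed to between 3388310 and 4367711. Usp7 itself held no member. Its level fell from 53.9 ± 5.32 to 36.9 ± 3.96 TPM (SD, n = 5 each), and the share of its 109-base bin E049 fell from 2.53% ± 0.236 to 1.03% ± 0.1504 (log2 change -1.29, adjusted p = 2.05e-18). Usp7 WT replicate 2, labelled female, and Usp7 cKO replicate 1, labelled male, went against their labelled sex in sex-linked transcripts. By these transcripts sex is not balanced over the genotypes, although it is by label. The identifiers of the libraries follow the genotypes in order, so that order and genotype cannot be told apart. Of 10 marker genes of glutamatergic neurons, 9 fell, and their summed level went from 3365 to 3759 TPM in WT to 2411 to 2940 TPM in cKO. Among the 9 was Neurod6, the gene also called NEX that drives Cre in this cross. It had the largest fall of the list, from 52.1 ± 1.97 TPM in WT to 24.2 ± 2.45 TPM in cKO (log2 change -1.10). What the Cre allele adds to that fall was not tested. All 6 microglial markers fell (253 to 279 TPM against 171 to 199 TPM), 1 of 8 GABAergic markers fell, 1 of 6 astrocyte markers rose, and none of the oligodendrocyte, precursor and endothelial markers passed the test. Every listed marker was detected. In bulk tissue, fewer cells of a type and less RNA per cell cannot be told apart, and what these shifts add to the bin and spliced-read results was not tested.

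Few members were called changed in their share of the gene. Of the 885 members that could be tested, 3 were higher and 4 lower in Usp7 cKO, which is 0.791% of them, against 0.378% of all 260998 bins tested. The 3 higher were 0.339% of the members against 0.289% of all bins, and the 4 lower were 0.452% against 0.0897%. The remaining 19 members lay in genes with fewer than 2 bins above the filter. The share called was 0.243% among isolated bins over 27 bases and 0.216% among bins of 3 to 27 bases with an adjoining bin. These proportions rest on 7 calls, and whether they differ was not tested. The median log2 change of share was -0.02 over the members tested (quartiles -0.12 and 0.11) and 0.00 over all bins.

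The called members all had at least 20 mean counts. None of the 304 members under 20 mean counts was called, against 5 of 330 from 20 to 100 and 2 of 251 above 100. Over all bins the same 3 ranges gave 0.158%, 0.473% and 0.438%. The groups did not overlap in share for 13 of the members tested, or 1.47%, against 1.61% of all bins tested. As a sum, the members took 0.231% ± 0.00326 of the bin counts in WT and 0.218% ± 0.00340 in cKO (SD, n = 5 each), and without the Nrgn bin 0.220% ± 0.00225 and 0.213% ± 0.00289. These sums are a description, since the counts chose the members, and they carry changes in gene level as well.

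**Figure D2:**
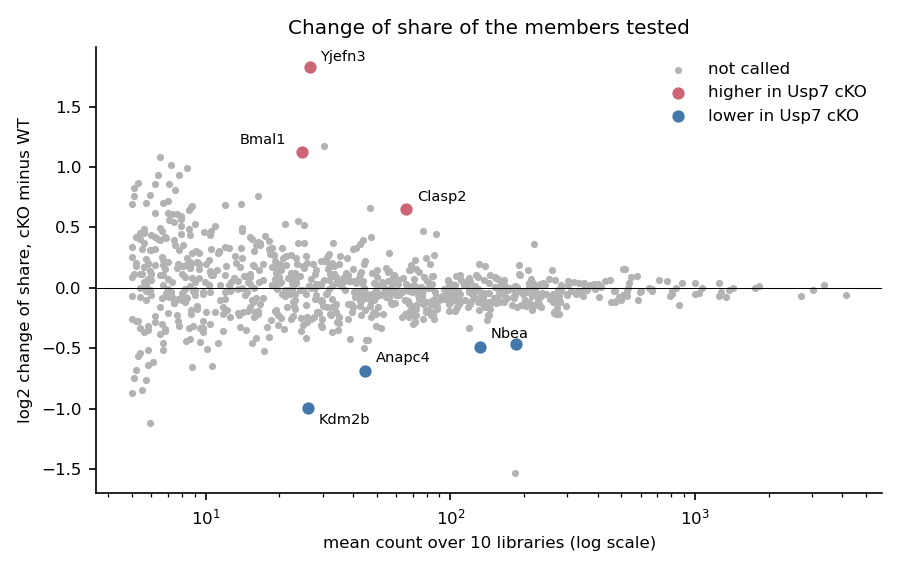
Log2 change of the share of the gene, Usp7 cKO minus Usp7 WT (vertical axis), against the mean count over 10 libraries (horizontal axis, log scale) for the 885 members tested, with the 3 higher bins in red, the 4 lower in blue and the others in grey, and gene names at 6 of these called bins. The spread narrows with depth, and the grey point near the bottom is a 5-base bin of Xist (log2 change -1.53, adjusted p = 1.0), which had 0 or 1 count in 4 libraries.

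Clasp2, which encodes a protein that binds and stabilises the growing ends of microtubules, held 6 members. The 27-base E037 was the one called, and the only call in the cytoskeleton group. Its share was 0.191, 0.217, 0.207, 0.204 and 0.274% of the gene's counts in WT replicates 1 to 5 and 0.290, 0.389, 0.320, 0.355 and 0.359% in cKO replicates 1 to 5. All cKO libraries were above all WT libraries. The share rose by 0.65 on the log2 scale (SE 0.126, adjusted p = 0.00565), and leaving out Usp7 cKO replicate 4 or Usp7 WT replicate 1 gave adjusted p-values of 0.0553 and 0.0639, in a range of 0.000584 to 0.0639. The level of Clasp2 itself fell slightly (log2 change -0.19, adjusted p = 0.0355).

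Inclusion of Clasp2 E037 in spliced reads was 6.44, 9.09, 11.2, 9.05 and 12.9% in WT and 15.9, 19.96, 13.1, 17.9 and 17.6% in cKO. The lowest cKO library stood just above the highest WT library (exact permutation p = 0.00794, the smallest that the 252 regroupings can give). In edgeR, no tested intron that flanks or skips E037 passed (lowest adjusted p = 0.743). Its neighbour Clasp2 E036, named after its values were seen, went from 13.7% ± 2.22 to 21.6% ± 4.74 included (exact permutation p = 0.0238), with overlapping groups. Without both discordant-sex libraries that permutation p was 0.0857. The share of E036 had a log2 change of 0.44 (adjusted p = 0.126). It passed in limma voom (adjusted p = 0.0394) and without Usp7 WT replicate 5 (adjusted p = 0.0388), in a range of 0.0388 to 0.678. The pair can be skipped by the same reads, so both values share part of their data. The 4 other Clasp2 members, of 3, 18, 24 and 24 bases, had log2 changes of share between -0.24 and 0.10, and none passed the test of share. Inclusion of the 24-base E033 went from 88.7% ± 1.24 to 86.1% ± 1.63 (exact permutation p = 0.0317), a difference that reached p = 0.0556 once Usp7 cKO replicate 4, or either of WT replicates 3 and 5, was left out. That of the 18-base E034 went from 93.6% ± 0.236 to 95.3% ± 1.14 (exact permutation p = 0.0159), and without both discordant-sex libraries p was 0.0571. The groups overlapped in both exons.

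The related exon of Clasp1, which encodes the paralogous microtubule protein, was included less often. Clasp1 E049, also named after its values were seen, was included in 88.5, 95.4, 91.9, 85.4 and 92.2% of spliced reads in WT and in 82.1, 81.2, 81.4, 79.7 and 82.0% in cKO. No library of the cKO group reached the lowest WT value (exact permutation p = 0.00794, which groups of 5 without overlap always give). In edgeR, no tested intron that flanks or skips the exon passed (lowest adjusted p = 0.574). The share of the gene was 1.13% ± 0.0998 in WT and 0.970% ± 0.0840 in cKO, a log2 change of -0.22 that did not pass (SE 0.0976, adjusted p = 0.984). The exons of the 2 paralogs that match at 19 of 27 positions thus had inclusion differences of opposite sign, from a low base in Clasp2 and a high base in Clasp1.

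Nbea encodes neurobeachin, a large scaffold protein that acts in membrane traffic to synapses. Its 9-base exon E047 took 0.494, 0.522, 0.505, 0.525 and 0.364% of the gene's counts in WT and 0.439, 0.370, 0.302, 0.336 and 0.281% in cKO. Usp7 WT replicate 5 lay inside the cKO range and the other WT libraries lay above it. The log2 change was -0.49 (SE 0.0999, adjusted p = 0.0103), and it was the only one of 75 tested Nbea bins called. Inclusion in spliced reads was 56.8, 51.7, 53.9, 60.3 and 54.3% in WT and 49.3, 46.8, 35.9, 39.4 and 36.04% in cKO, with no overlap (exact permutation p = 0.00794, unadjusted). In edgeR, no tested intron that flanks or skips E047 passed (lowest adjusted p = 0.694). The share call was lost, with adjusted p-values of 0.0777 to 0.123, without Usp7 cKO replicate 4 or 5, Usp7 WT replicate 1 or 2, or both libraries of discordant sex, in a range of 0.00219 to 0.123 over all alternatives. In the authors' deposited table its adjusted p was 0.0838.

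Bmal1 encodes a transcription factor at the core of the circadian clock. Its 21-base exon E012 took 1.23, 0.933, 0.671, 0.680 and 0.547% of counts in WT and 1.04, 2.04, 1.63, 2.17 and 1.97% in cKO. Usp7 cKO replicate 1 lay within the WT range and the other 4 cKO libraries above it. The share rose by 1.12 on the log2 scale (SE 0.233, adjusted p = 0.00199), and the neighbouring bins changed by -0.06 and -0.20 without passing. Inclusion was 20, 13.0, 13.0, 7.63 and 5.04% in WT and 16.8, 51.02, 25.7, 44.9 and 34.3% in cKO (exact permutation p = 0.0159), the largest rise in mean inclusion among the members measured, on a mean of 126.5 reads per library. The gene's level did not pass the test (log2 change 0.06, SE 0.0941, adjusted p = 0.731). Without Usp7 cKO replicate 4 the adjusted p was 0.0579, in a range of 0.000595 to 0.0579.

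Anapc4 E007 fell as well. The gene encodes a subunit of the anaphase-promoting complex, a ubiquitin ligase. The 27-base exon took 1.69, 1.82, 1.82, 2.43 and 2.44% of counts in WT and 0.993, 1.03, 1.26, 1.66 and 1.25% in cKO. The highest cKO library was just below the lowest WT library. The log2 change was -0.68 (SE 0.158, adjusted p = 0.0266). The next bin to the right had a log2 change of -0.54 (adjusted p = 0.178) and the one to the left -0.24. No introns of the table flanked it, so inclusion could not be given, and 2 annotated transcripts contain the exon while none skips it. The call was lost, with adjusted p-values of 0.0762 to 0.270, when Usp7 cKO replicate 1, 2 or 5, Usp7 WT replicate 4 or 5, or both libraries of discordant sex were left out, and was 0.0711 in DESeq2, in a range of 0.00691 to 0.270.

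In Yjefn3 and Kdm2b other bins of the gene were called as well. Yjefn3, a gene of the YjeF N-terminal domain family, held a 13-base bin E004 at 1.03, 2.06, 0.319, 0.378 and 1.58% of counts in WT and at 3.68, 3.41, 3.83, 4.29 and 4.03% in cKO. The groups were far apart, although the WT values rest on 2 to 13 counts. The share rose by 1.83 on the log2 scale (SE 0.270, adjusted p = 2.24e-06). In the same gene 7 of 10 tested bins were called. The bin to the left, E003, went from 3.98% ± 0.887 to 14.1% ± 1.41. The bin to the right, E005, went the other way, from 7.46% ± 0.669 to 4.91% ± 0.411, without passing (adjusted p = 0.0870). The gene's level rose from 46.6 ± 5.39 to 127 ± 14.8 TPM (log2 change 1.43, adjusted p = 4.46e-06).

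Kdm2b encodes a histone demethylase that also joins Polycomb complexes. Its 21-base bin E055 (chr5:122987662-122987682) matched no exon exactly and lay inside a longer one. It took 1.22, 1.32, 1.26, 1.75 and 1.09% of counts in WT and 0.671, 0.673, 0.516, 0.753 and 0.751% in cKO, with no overlap. The log2 change was -0.99 (SE 0.213, adjusted p = 0.00377). The bin to its right fell by 1.84, on a mean of only 5.8 counts, and the bin to its left, at 2.0 counts, was not tested. In all, 6 of 48 tested bins of Kdm2b were called, and the gene's level rose by 0.50 on the log2 scale (adjusted p = 0.00445). Leaving out Usp7 WT replicate 4 gave an adjusted p of 0.0696 and leaving out both libraries of discordant sex 0.117, in a range of 0.00337 to 0.117.

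**Figure D3:**
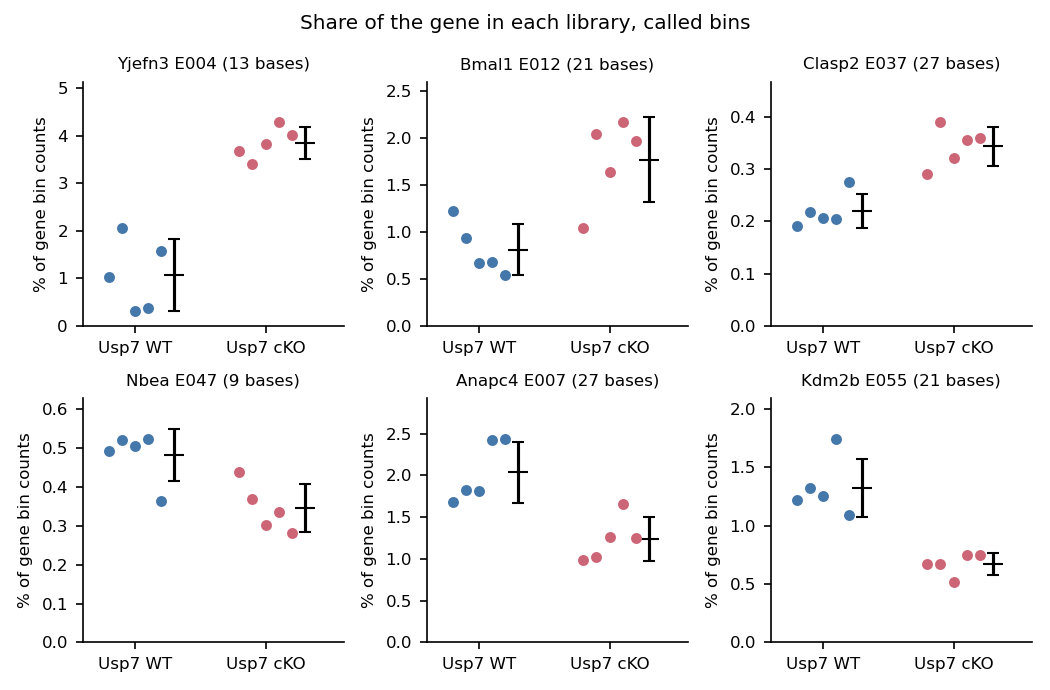
Percent of the gene's bin counts that fell in each of 6 called bins (vertical axes) in the 5 Usp7 WT and 5 Usp7 cKO libraries (points in replicate order), with the mean and SD as black bars. The groups overlap in Bmal1 (Usp7 cKO replicate 1 is low) and Nbea (Usp7 WT replicate 5 is low) and are apart in the other 4 panels.

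The authors' deposited table, which tested 894 members, gave 9 an adjusted p under 0.05, among them 6 of the 7 called here. The share of all bins that passed in that table is not given here, so these 9 have no background beside them. The 3 others were Col4a1 E006, Shank1 E025 and Fmnl1 E010, whose adjusted p here was 0.155, 0.0608 and 0.111. Their log2 changes here were 1.18, 0.37 and 0.47, and the groups did not overlap in share for any of the 3. In DESeq2 the first pair passed, Col4a1 E006 at an adjusted p of 0.00177 and Shank1 E025 at 0.0223, in ranges of 0.00177 to 0.445 and 0.0223 to 0.849 over the alternatives. Col4a1 E006 also passed without Usp7 WT replicate 2 (adjusted p = 0.0208). In Fmnl1, which encodes a formin, 12 of 37 tested bins were called, among them the next bin E009 (log2 change 0.47, adjusted p = 0.0252). Inclusion of Fmnl1 E010 did not follow the sign of its share, at 96.0% ± 4.10 in WT and 92.8% ± 3.71 in cKO (exact permutation p = 0.230).

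Spliced reads gave another view from the same libraries, though not an independent one. A read that falls in so short a bin will often cross its junctions too, so both readouts share reads. Clasp2 E037, for example, had a mean of 66.0 bin counts and of 65.65 reads over its flanking introns. Introns on both sides of the bin were listed for 244 members, and 241 of them also had an intron that skips it. Inclusion is the mean count of both flanking introns over that mean plus the skipping reads. In WT the median inclusion of these members was 76.2% (quartiles 37.1 and 89.7%), and 96 of them (39.8%) lay between 20 and 80%, against 39.5% of isolated bins over 27 bases. The groups did not overlap for 13 members (5.39%), 5 higher and 8 lower in cKO, against 131 of 2304 longer bins (5.69%), so this share is near the background. Of these 13, only Shank2 E026 had a flanking or skipping intron that passed in edgeR (adjusted p = 0.0290). The median difference was -0.48 percentage points in the members and 0.24 in the longer bins.

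**Figure D4:**
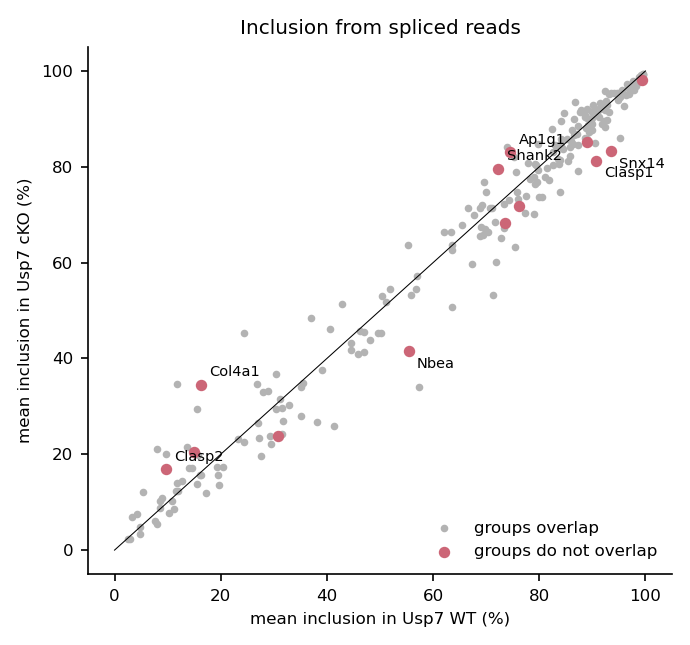
Mean inclusion in Usp7 cKO (vertical axis, %) against mean inclusion in Usp7 WT (horizontal axis, %) for 241 members, with the line of equal values. Red points mark the 13 members whose groups did not overlap, and the genes named among them differed by more than 7 percentage points.

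Shank1 and Shank2, which encode scaffold proteins of the postsynaptic density, both included a short exon more often in cKO. They were named after their values were seen. The 21-base Shank2 E026 was included in 72.1, 70.0, 73.7, 72.3 and 73.3% of spliced reads in WT and in 73.8, 84.3, 81.5, 77.9 and 80.5% in cKO. Usp7 cKO replicate 1 was barely above the highest WT library (exact permutation p = 0.00794). The 9-base E025 just before it was included at 84.5% ± 1.501 and 83.7% ± 3.20.

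The intron that joins Shank2 E025 to the exon beyond E026 was the one called among the 677 tested introns ending at a member (0.148%, against 0.117% of all 30733 introns). It held 58, 60, 52, 65 and 69 reads in WT and 32, 17, 24, 20 and 17 in cKO. Every cKO count was below every WT count, with a log2 change against its cluster of -1.24 (adjusted p = 0.0290). The call was lost without any one of Usp7 WT replicates 1, 2, 4 and 5 and Usp7 cKO replicates 2 to 5. In bin counts, E026 had a log2 change of 0.06 (adjusted p = 1.0).

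The 24-base Shank1 E025 was included in 16.4, 14.3, 12.2, 13.9 and 18.1% of reads in WT and in 21.99, 20.2, 19.4, 19.7 and 21.3% in cKO, without overlap (exact permutation p = 0.00794). Its share of the gene was 0.276% ± 0.0298 in WT and 0.357% ± 0.0300 in cKO. The level of Shank1 fell (log2 change -0.52, adjusted p = 0.00215). The 27-base Shank1 E017 was at 27.1% ± 2.89 and 23.4% ± 2.77 included (exact permutation p = 0.0794).

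**Figure D5:**
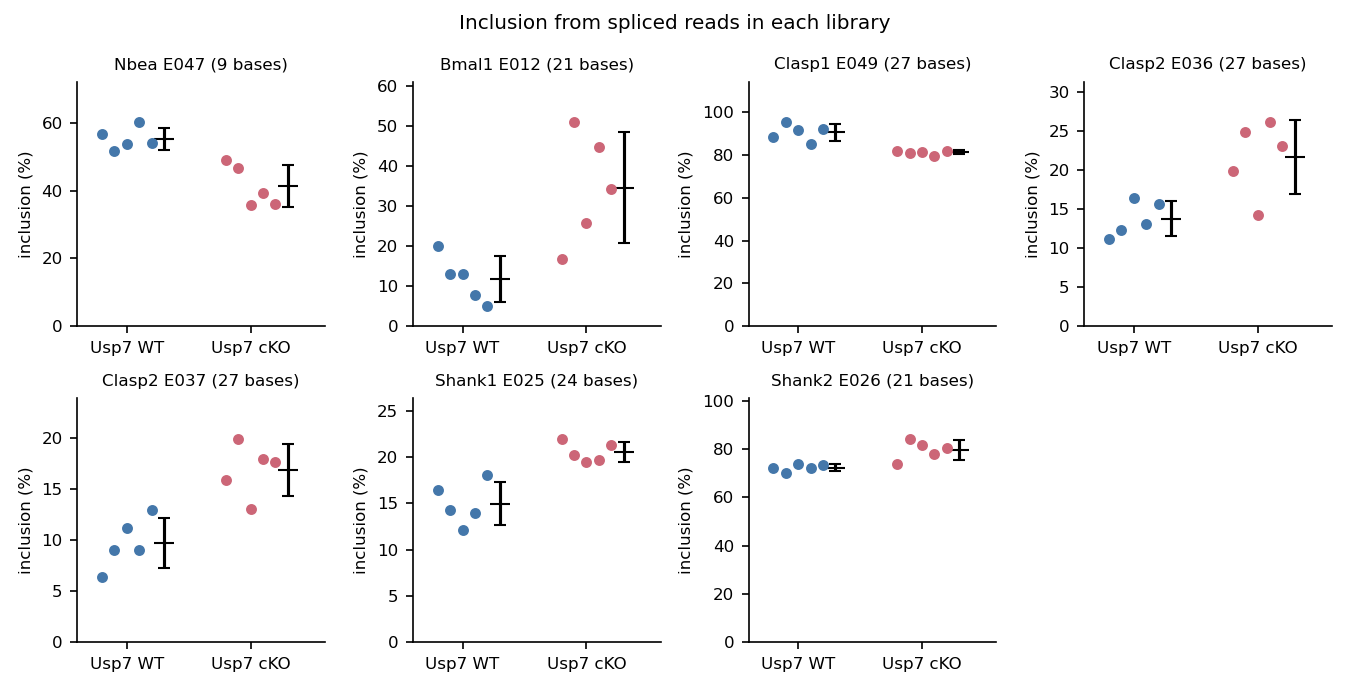
Percent of spliced reads that include the exon (vertical axes) in each Usp7 WT and Usp7 cKO library (points in replicate order), with mean and SD as black bars, for 7 exons. Nbea and Clasp1 are lower in cKO, Clasp2 E037, Shank1 and Shank2 are higher, and in Bmal1 and Clasp2 E036 the groups overlap.

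Further members whose groups did not overlap in inclusion were also named after their values were seen. Groups of 5 libraries without overlap always give an exact permutation p of 0.00794. That p follows from how these members were picked and is no further evidence. The same holds for Clasp1 E049, Shank1 E025 and Shank2 E026. Col4a1 encodes a collagen chain of basement membranes. Its 17-base exon E006 went from 17.1, 14.8, 18.0, 10.1 and 21.3% in WT to 28.3, 42.6, 34.1, 35.4 and 32.2% in cKO, well above the WT range. Of the genes of membrane traffic, the 9-base Ap1g1 E010, in a subunit of the AP-1 clathrin adaptor, went from 74.5% ± 3.36 to 83.1% ± 2.43. The 27-base Snx14 E022, in a sorting nexin, went the other way, from 93.5% ± 3.20 to 83.2% ± 4.31.

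Lower inclusion was also seen in exons of a translation factor, a kinase, a proteoglycan and a channel subunit. The 21-base Eif4g3 E019 went from 73.5% ± 1.64 to 68.3% ± 2.90. The 24-base Tnik E034 went from 89.0% ± 1.19 to 85.1% ± 1.79, and the 9-base Spock1 E015 from 76.2% ± 1.33 to 71.8% ± 1.82. The 20-base Cacnb3 E018, in a calcium channel subunit, went from 99.4% ± 0.377 to 98.1% ± 0.363. In all 13 members without overlap, the log2 change of the share of the gene had the same sign as the difference in inclusion. Both readouts share reads and these members were picked for their separation in inclusion, so the like sign is no separate support.

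A difference of over 10 percentage points was seen in 17 members (7.05%), 8 up and 9 down, against 185 of the 2304 longer bins (8.03%), so this share is near the background too. Of the 17, 8 rested on fewer than 50 reads per library. The groups overlapped in all of the 17 except Nbea, Snx14 and Col4a1. The largest fall, in the 27-base Col23a1 E005 (57.3% ± 10.4 to 34.0% ± 9.90), had a mean of 33.8 reads.

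Well-covered members in genes of known neuronal roles are given next, whether or not they moved, and none of them passed the test of share. Of the 10 with the most counts and introns on both sides, 9 were in Kif1a, Ptprs, Sptan1, Ank2, Mef2c, Dctn1, Clasp2 (2 bins) and Nrcam, and their log2 changes of share lay between -0.07 and 0.10. Kif1a E051, a 27-base exon of an axonal kinesin of synaptic vesicle precursors, had shares of 0.927, 0.955, 0.965, 0.939 and 0.967% in WT and 1.003, 0.933, 0.907, 0.946 and 0.966% in cKO. These groups overlap throughout, and inclusion was 70.7% and 71.3%. The 24-base Mef2c E054, in a neuronal transcription factor, was included in 99.5% of reads in WT and 99.2% in cKO, while the gene's level fell (log2 change -0.42, adjusted p = 0.00206).

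Grouped by role, the adhesion molecules and receptor phosphatases held 43 members in 23 genes, of which 1 was lower, and 42 of these had a length divisible by 3. The cytoskeleton and motor genes held 38 members with 1 higher. Genes of vesicle traffic held 37 members, ion channels and transmitter receptors 23, kinases, phosphatases and GTPase regulators 21, transcription and chromatin 8, and translation and RNA-binding proteins 7, and none of these was called. The other 727 members, in genes outside the role lists, held 2 higher and 3 lower. Over all bins tested 0.378% were called, so role groups of 7 to 43 members are too small for their calls to tell roles apart. Median log2 changes of the role groups ran from -0.10 (translation and RNA-binding) to 0.04 (ion channels), against 0.00 over all bins. In WT, the median inclusion was 31.1% for the 8 measured members in channel genes (4.72 to 96.8%) and 80.3% for the 34 in adhesion genes (11.7 to 99.6%). The remaining role groups had medians of 71.3 to 86.4%. The ranges overlapped widely, and whether inclusion differs by role was not tested.

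Of 718 genes holding a member and tested in level, 73 were higher and 74 lower in cKO (20.5%), against 13.9% of all 27580 genes tested, where 2544 were higher and 1288 lower. A member needed a mean count of 5 in at most 27 bases, whereas a gene needed only a mean TPM of 0.5. The 2 sets may thus differ in expression, and they were not compared at like levels. Among 32 listed splicing regulators, 3 rose and 5 fell (25.0%), with a median log2 change of 0.00 against 0.06 over all genes.

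Srrm4, the main activator of neuronal microexons, was at 37.4, 32.1, 35.9, 34.7 and 43.1 TPM in WT and 41.6, 46.8, 51.7, 39.2 and 45.2 TPM in cKO. The groups overlap, and the log2 change was 0.29 (SE 0.0804, adjusted p = 0.0383). That call was lost under 12 of 18 alternatives, among them leaving out any one library except Usp7 WT replicate 5, with adjusted p-values of 0.00119 to 0.125 over all 18. Its relative Srrm3 was at 53.8 ± 7.58 and 54.2 ± 9.10 TPM.

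Rnps1, a cofactor of SRRM4, rose from 58.9 ± 4.401 to 75.8 ± 6.09 TPM (log2 change 0.36, adjusted p = 0.00259), and Ptbp1, the repressor, from 18.2 ± 1.55 to 23.5 ± 3.90 TPM (0.35, adjusted p = 0.0369). The Ptbp1 call was lost under 9 of 18 alternatives (0.000740 to 0.114), among them leaving out Usp7 cKO replicate 1, 3, 4 or 5 or Usp7 WT replicate 1, 2 or 3. The 5 that fell are neuronal RNA-binding proteins. Rbfox1 went from 278 ± 20.8 to 220 ± 7.79 TPM (-0.33, adjusted p = 0.00334), Rbfox3 from 204 ± 11.1 to 162 ± 13.4 TPM (-0.33, adjusted p = 0.00292) and Khdrbs3 from 158 ± 11.1 to 124 ± 12.3 TPM (-0.35, adjusted p = 0.00886). Nova1 had a log2 change of -0.28 (adjusted p = 0.0158) and Elavl2 of -0.25 (adjusted p = 0.0202), and the Elavl2 call was lost without Usp7 cKO replicate 4 (adjusted p = 0.0596, in a range of 0.00175 to 0.0808). Without the discordant-sex libraries both calls were lost, at 0.0788 for Nova1, whose range was 0.000115 to 0.0788, and at 0.0808 for Elavl2. These falls stand beside the fall of 9 of 10 glutamatergic markers, among them the Cre driver gene Neurod6. What the fall of the markers adds to them was not tested.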

How the data were processed

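Per the labels' protocols, cortical RNA of 10 mice was cleared of ribosomal RNA and random hexamers primed the cDNA. The deposited bin table holds raw counts per DEXSeq bin, and a second table holds raw counts of spliced reads per leafcutter intron, per the file headers. Gene levels are the authors' TPM. The bin table also gives the authors' log2 fold change and p-value of exon usage. Subread, featureCounts, SAMtools 1.10, STAR 2.7.9a and GRCm38 stand in the submitters' processing notes, and the counting strand is not given in the sources used here. Usp7 WT replicate 1 held only even intron counts, which were halved.

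Shares and introns were tested with edgeR 4.0.16 (glmQLFit, diffSpliceDGE, TMM; mean count of at least 5; at least 2 features per gene or cluster) against the gene or cluster, and levels with limma 3.58.1 on log2(TPM + 0.5) where the mean TPM was 0.5 or more, a scale that understates the change of low genes. Labelled sex was a covariate, also for the 2 libraries that go against it. P-values were adjusted by Benjamini-Hochberg over all features tested, at 0.05. Single values were compared by two-sided exact permutation tests over libraries, whose smallest p is 0.00794; 241 members were compared in inclusion, without adjustment. Annotation and sequences came from GENCODE M21. DESeq2 1.42.0 was an alternative. Libraries are separate animals, drawn from 5 pairs (2 male, 3 female) of like litter and sex. No label names the pairs or says what the number ending each title marks, but that number and the labelled sex together are balanced over the genotypes. The steps were tested on simulated data with a fixed spread, in bins of any length with at least 20 mean counts from a sample of genes. There, 83% of 100 bins changed by 1.0 on the log2 scale were called, but only 30% of 100 bins changed by 0.5. These bins were not limited to microexon size, so recovery among the members may differ. A bin that was not called may thus still have changed. R 4.3.3, Python 3.11.15, pandas 2.3.3, numpy 2.4.6, scipy 1.17.1 and matplotlib 3.10.9 were used.

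The members and lists were chosen with earlier results of these data known. Some members, 1 of them called, are not reported here, although totals include them. Otherwise the text names all called members, the 10 most counted members of role-list genes with introns on both sides, and those at the thresholds. It also names called regulators, and others said to be chosen after their values were seen. Some further members were named outside these rules, among them Fmnl1 E010, Shank1 E017, Col23a1 E005 and the Xist bin.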

Additional observations from a re-analysis of the deposited data

Results flagged for a closer look

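Among 106 groups of 5 libraries examined for the members named, 6 had a library that stood apart from the other 4, where chance flags about 1 in 20 groups. Usp7 WT replicate 5 had a share of Nbea E047 of 0.364%, against 0.494 to 0.525% in the other WT libraries. The same library had an inclusion of Ptprs E022 of 98.4%, against 99.6 to 100%. In Usp7 WT replicate 4 the share of Col4a1 E006 was 0.162%, against 0.241 to 0.269%. Usp7 cKO replicate 2 stood apart in 3 groups. Its inclusion of Ap1g1 E010 was 78.9%, against 83.1 to 84.8%. Its share of Fmnl1 E010 was 1.36%, against 1.08 to 1.14%. Its share of Clasp1 E049 was 1.12%, against 0.915 to 0.953% in the other cKO libraries, whereas its inclusion of the same exon, 81.2%, lay among theirs.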

How the results depend on the processing

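Members called higher numbered 3, and 5 in DESeq2, with 1 to 4 when 1 library was left out. Members called lower numbered 4, and 2 to 4 when 1 library was left out, but 0 without both libraries of discordant sex. That edgeR fit called 3 higher and gave 21 lower members an unadjusted p under 0.05, as many as with all libraries, and it called 506 of all bins against 987. DESeq2, with all libraries and an adjusted p for 640 members, called 3 lower. Yjefn3 E004 kept its call under all 18 alternatives. Introns at members called numbered 1, and 3 in limma voom, with 0 to 1 when 1 library was left out. Regulators called higher numbered 3, but 1 without a TPM filter and 1 without the discordant libraries, with 1 to 3 when 1 library was left out. Regulators called lower numbered 5, but 11 with TPM rescaled by size factors, 11 in edgeR on bin counts summed per gene and 3 without the discordant libraries, with 4 to 7 when 1 library was left out. Members whose inclusion did not overlap numbered 13, and 26 without the discordant libraries, with 14 to 21 when 1 library was left out; smaller groups overlap less by construction, and these settings were chosen after the data were seen.

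Sign changed only in named values near 0. The share change of Kif1a E051 was 0.00, against -0.00155 in limma voom, -0.0143 without the discordant libraries, and -0.0178 to 0.0150 leaving out 1 library. Leaving out 1 library gave -0.0360 to 0.0365 for Nrcam E019 and -0.0586 to 0.0125 for Shank2 E025. The inclusion difference of Kif1a E051 was 0.648 percentage points, but -0.0629 without the discordant libraries and -0.222 to 1.24 leaving out 1 library, and that of Sptan1 E057 ran from -0.0763 to 0.160.

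Libraries of different genotype whose titles end in the same number had correlations of deviations from the group mean of -0.016 to 0.092 (9 pairs, median 0.070) against -0.093 to 0.034 for the others (16 pairs, median -0.029). Same-numbered libraries thus deviated together slightly more, but no correlation was above 0.1, and no label says that the number marks a litter, so the pairing is not established. With that number as a replicate block beside labelled sex 4 members were higher and 4 lower, 1 intron was called, and regulators numbered 3 higher and 6 lower. The causes were not tested. None of the 304 members under 20 mean counts was called, and how small a change could be detected in them was not tested.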
